A study of Mus musculus with 4 samples.

Results

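The 9 genes described here encode transcription factors that drive the formation of the osteoclast, the bone-resorbing cell of the monocyte lineage, or that restrain it. They were taken by symbol from a table of 12799 genes and all 9 were found, 5 drivers (Nfatc1, Mitf, Spi1, Prdm1 and Jdp2) and 4 restrainers (Irf8, Bcl6, Id2 and Rbpj). All 9 passed the filter on low values, as did 11781 genes in all. Poly(A) RNA was sequenced from bone marrow-derived monocytes of 12-week-old female mice cultured for 3 days in 30 ng/mL M-CSF, which sustains the lineage, with 50 ng/mL RANKL, the signal for osteoclast formation. Knockout cells came from Csf1r-iCre;Piezo1 fl/fl mice (n = 2 libraries), in which a Cre recombinase under the promoter of the M-CSF receptor gene deletes the flanked part of Piezo1, a stretch-activated cation channel, in the monocyte lineage. Control cells came from Piezo1 fl/fl mice without the recombinase (n = 2 libraries), so that effects of the Cre transgene and of Piezo1 loss cannot be told apart. The comparison asks whether loss of the channel moved the factors that set the osteoclast programme, and whether drivers and restrainers moved apart.

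RANKL signalling raises NFATc1, which amplifies its own gene and, with PU.1 and MITF, switches on the genes for fusion and bone resorption. PU.1, encoded by Spi1, is needed for the whole myeloid lineage. Restraining factors keep these genes silent in the precursor, and Blimp-1, the repressor encoded by Prdm1, shuts down the genes for several of them, among them Irf8 and Bcl6. IRF8 also maintains the macrophage state, so a falling Irf8 and a rising Nfatc1 together mark the passage toward the osteoclast.

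RefSeq promoters on GRCm38 were at hand for 7 of the 9 genes, as the 250 bases before the start site. Shown are Irf8 and Id2, the members whose levels differed most between libraries of the same genotype, Jdp2, the driver with the highest level, and Prdm1, whose product represses Irf8. Capitals mark letters searched for on both strands. They are TTCNNNGAA, the element bound by STAT factors, in Irf8, the E-box CANNTG in Id2, and the PU.1 box GAGGAAG in Jdp2 and Prdm1. TGANTCA, a loose form of the AP-1 site with any middle base, is marked in Prdm1, which alone of these held it. The middle base of that match is A.
Irf8 (chr8:120736108-120736357, plus strand): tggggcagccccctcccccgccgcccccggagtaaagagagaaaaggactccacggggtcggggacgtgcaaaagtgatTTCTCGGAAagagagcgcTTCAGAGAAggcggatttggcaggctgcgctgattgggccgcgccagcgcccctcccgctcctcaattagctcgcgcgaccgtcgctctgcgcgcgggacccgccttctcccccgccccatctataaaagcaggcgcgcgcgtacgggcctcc
Id2 (chr12:25096093-25096342, minus strand): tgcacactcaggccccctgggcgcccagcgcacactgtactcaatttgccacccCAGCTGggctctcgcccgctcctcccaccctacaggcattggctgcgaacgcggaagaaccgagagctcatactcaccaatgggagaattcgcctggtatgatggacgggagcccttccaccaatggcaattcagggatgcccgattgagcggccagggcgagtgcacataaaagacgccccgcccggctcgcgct
Jdp2 (chr12:85599166-85599415, plus strand): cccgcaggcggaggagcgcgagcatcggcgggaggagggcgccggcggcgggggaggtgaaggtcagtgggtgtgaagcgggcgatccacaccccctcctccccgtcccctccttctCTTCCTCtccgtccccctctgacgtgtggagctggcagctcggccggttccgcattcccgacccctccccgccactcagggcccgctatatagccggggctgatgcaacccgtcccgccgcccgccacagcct
Prdm1 (chr10:44458749-44458998, minus strand): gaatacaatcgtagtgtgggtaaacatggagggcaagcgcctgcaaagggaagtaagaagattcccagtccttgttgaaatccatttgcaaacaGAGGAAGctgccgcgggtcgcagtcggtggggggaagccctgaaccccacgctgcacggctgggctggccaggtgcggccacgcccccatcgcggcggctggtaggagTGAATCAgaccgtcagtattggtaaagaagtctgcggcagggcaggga

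The Irf8 promoter held 2 matches of TTCNNNGAA, a letter string present in 7.02% of 32851 promoter windows of this length, and that of Bcl6 held 1. The first of them also matched, on the other strand, the BCL6 site TTCCNNGAA, which is a stricter form of the same string and is present in 4.06% of windows. The PU.1 box was found in the windows of Prdm1, Jdp2 and Bcl6 against 10.6% of all windows. The loose AP-1 form TGANTCA was found in that of Prdm1 against 6.75%. The E-box, which 66.2% of windows hold, was found once in the Id2 window and also in those of Prdm1 and Bcl6. The NFAT core GGAAA was found in the windows of Irf8, where it overlaps the first marked match, Bcl6 and Rbpj, against 55.6% of all windows. The core of the Blimp-1 site, GTGAAAG, was in 0 of the 7 windows against 3.57% of all, which says only that these letters are not there. These are matches of letters only, and no binding was measured.

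In the 4 libraries between 14122118 and 18897927 reads were recovered from the normalised values, which are given here as CPM (reads of a gene over a scaled library size). Piezo1 checked the labels, at 61.0 and 56.2 CPM in the knockouts against 430.1 and 384 CPM in the controls, and it fell (log2 fold change −2.79, limma adjusted p = 8.23e-05). The labelled cell type was also checked by markers. The macrophage and osteoclast markers Csf1r, Adgre1, Cd68, Lyz2, Acp5, Ctsk and Calcr were all measured. Of 8 B cell markers 1 (Ebf1) had a row in the table, of 8 T and NK cell markers 1 (Tcf7), of 7 dendritic cell markers 1 (Zbtb46) and of 5 mast cell and basophil markers 0. The highest of these 3 genes, Ebf1, averaged 5.24 ± 0.042 CPM in the knockouts and 5.97 ± 1.46 CPM in the controls (SD, n = 2 each). Of 12 stromal cell markers 11 had a row, and their summed level was 1266 and 1154 CPM in the knockouts against 1780 and 2230 CPM in the controls. Of these 11, limma and edgeR called 0, against 0.161% of all genes tested, and DESeq2 called 5, against 0.535%. The unadjusted limma p was under 0.05 for 6, against 4.9% of all genes, and groups did not overlap for 8, against 31.9%. Log2 fold changes were negative for 10 and positive for 1, with a median of −0.50, and both knockouts had the lower sums. Neutrophil and precursor markers, 7 of 9 with a row, summed to 54.4 and 53.5 CPM in the knockouts against 46.6 and 85.8 CPM in the controls. The part of these cells in the values below was not tested. In such bulk libraries fewer cells of a type and less RNA per cell cannot be told apart.

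Drivers stood above restrainers in every library. On GRCm38, in the GENCODE annotation, Spi1 spans chr2:91082390-91115756, Mitf chr6:97807052-98021349, Prdm1 chr10:44437177-44528501 and Jdp2 chr12:85599027-85639878. Irf8 spans chr8:120736358-120756694, Bcl6 chr16:23965052-23988852, Id2 chr12:25093799-25097140 and Rbpj chr5:53466152-53657362, and all are protein-coding. Levels of different genes were compared per length, as CPM per kb of all annotated exons. Jdp2, which encodes an AP-1 family factor needed for osteoclast formation in mice, was the highest of the 9, at 564 and 714 CPM per kb in the knockouts against 590.1 and 614 CPM per kb in the controls. Spi1 followed at a mean over the 4 libraries of 160.1 CPM per kb, then Nfatc1 at 116, Prdm1 at 35.6 and Mitf at 14.3 CPM per kb. The restrainers filled the lower end. Id2 averaged 9.70 CPM per kb, Bcl6 3.41, Rbpj 3.40 and Irf8 0.694 CPM per kb. Neighbours in this order did not overlap over the 4 libraries, except Bcl6 and Rbpj. Per kb of the principal transcript alone, which is shorter, Rbpj stood above Bcl6 on average, though their libraries still overlapped. On this measure Spi1 also overlapped Nfatc1 and Id2 overlapped Rbpj.

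**Figure D1:**
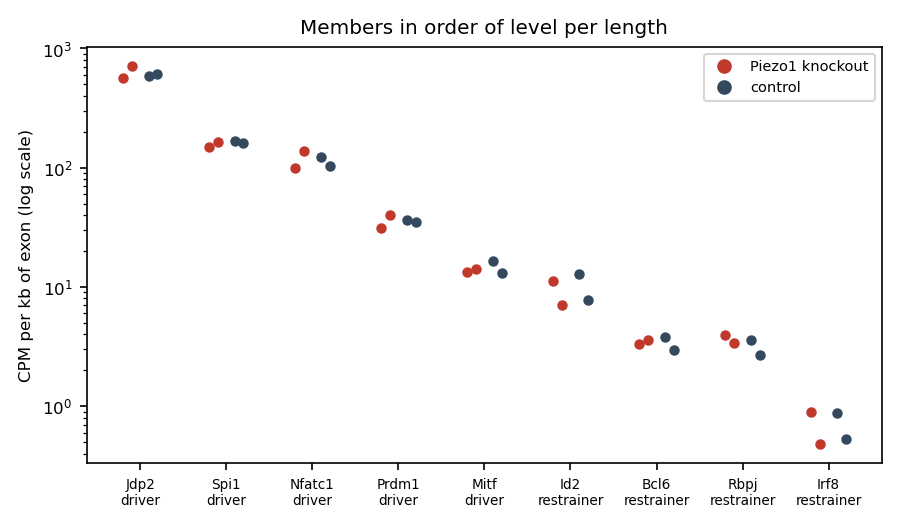
Levels of the 9 genes in CPM per kb of exon on a log axis, with a point for each library (red, knockouts; dark, controls), ordered by the mean over libraries. The 5 drivers lie above the 4 restrainers in every library, from Jdp2 at 564 CPM per kb or more down to Irf8 at 0.889 CPM per kb or less.

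No driver passed the test of genotype, and no restrainer did. Of the 9 genes, 0 had a limma adjusted p under 0.05, against 0.161% of all genes tested. With edgeR 0 of the 9 passed against 0.161% of all genes, with DESeq2 0 against 0.535%, and 0 had an unadjusted limma p under 0.05 against 4.9%. Each of the 9 had a limma adjusted p of 0.9997. Knockout and control libraries overlapped for all 9, where 31.9% of all genes tested had groups that did not overlap.

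Nfatc1, the master factor of the programme, was at 736 and 1036 CPM in the knockouts against 926 and 773 CPM in the controls. The knockouts were the lowest and the highest of the 4 libraries, and the controls lay between them. The log2 fold change was 0.04 (SE 0.17), with a 95% interval of −0.36 to 0.45, so that the fold could lie between 0.778 and 1.37. These values rest on 11045 to 19055 reads per library, and the 95% Poisson intervals of the knockouts, 722 to 749 and 1021 to 1051 CPM, were apart. The gap between the knockouts was therefore larger than counting error, which is all that such intervals cover.

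Mitf, which switches on genes such as Acp5 and Ctsk together with PU.1, was at 83.2 and 87.5 CPM in the knockouts against 102 and 81.5 CPM in the controls. Control 1 was the high library, and the other 3 lay between 81.5 and 87.5 CPM. The log2 fold change was −0.10 (SE 0.12, 95% interval −0.38 to 0.19). Spi1 was at 402 and 443 CPM in the knockouts against 449 and 431 CPM in the controls. It had the narrowest interval of the 9, −0.29 to 0.17 around a log2 fold change of −0.06 (SE 0.10), and folds under 0.819 or over 1.12 lie outside it.

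Prdm1 was at 173 and 223 CPM in the knockouts against 202 and 197 CPM in the controls. As with Nfatc1, the knockouts enclosed the controls, and the log2 fold change was −0.02 (SE 0.13, 95% interval −0.31 to 0.28). Jdp2 was at 1212 and 1533 CPM in the knockouts against 1267 and 1318 CPM in the controls. Knockout 2 was again the high library, and the log2 fold change was 0.08 (SE 0.14, 95% interval −0.25 to 0.40). Annotation places a gene on the opposite strand, Gm47863, over 7.68% of the exonic bases of Jdp2, and reads of both cannot be told apart where the counting strand is not given.

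**Figure D2:**
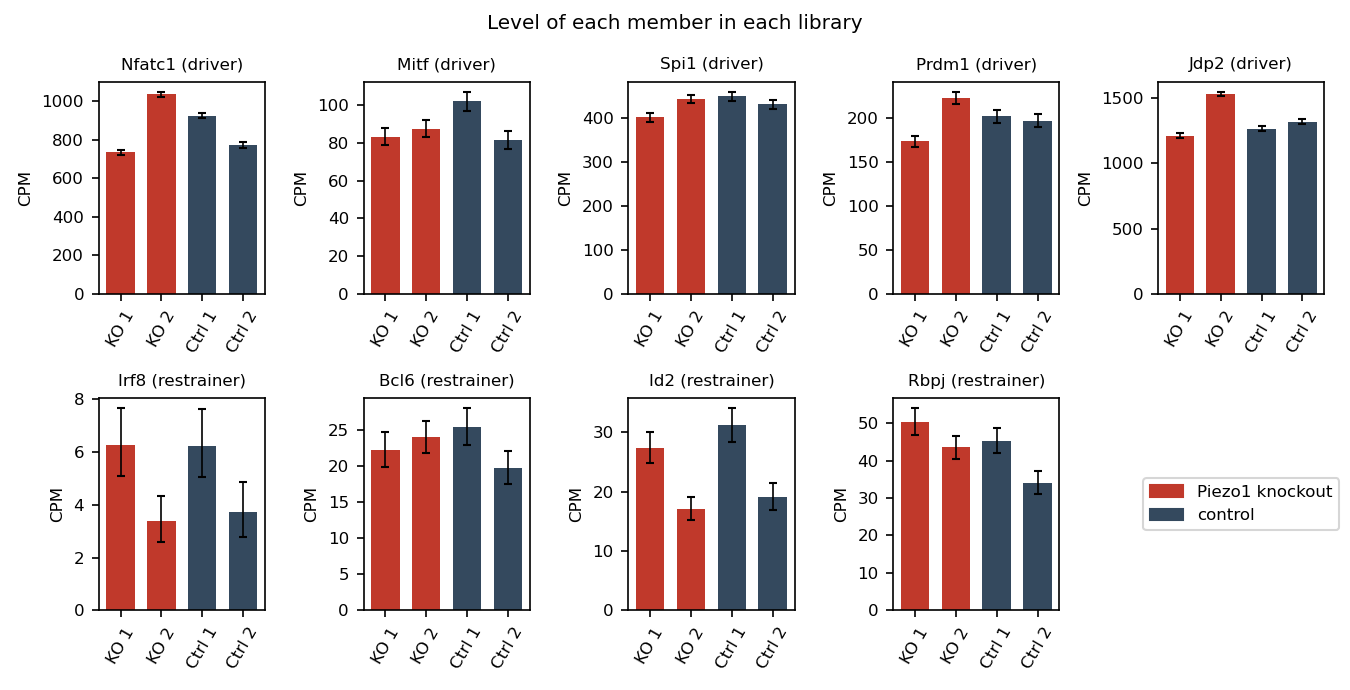
Level of each gene in CPM in each library (red, knockouts; dark, controls; axes start at 0), with 95% Poisson intervals that cover counting error only. Drivers are in the upper row and restrainers in the lower. All 5 drivers are lower in knockout 1 than in knockout 2, and Irf8 and Id2 are high in knockout 1 and control 1.

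Of the restrainers, Irf8 was at 6.27 and 3.37 CPM in the knockouts against 6.23 and 3.71 CPM in the controls. Each genotype had a high and a low library at matching levels. The log2 fold change was −0.06 (SE 0.33), and its 95% interval, −0.82 to 0.71, was the widest of the 9 genes. Irf8 also had the fewest reads, 95 and 62 in the knockouts against 96 and 53 in the controls. Its 95% Poisson intervals were still apart within each genotype. They were 5.07 to 7.66 and 2.58 to 4.32 CPM in the knockouts, and 5.05 to 7.61 and 2.78 to 4.85 CPM in the controls. The gaps between libraries were thus larger than counting error. Folds between 0.565 and 1.64 lie inside the interval of the fold change, and a moderate change was not detectable at this depth and spread.

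Id2, an inhibitor that binds basic helix-loop-helix factors and keeps them from DNA, was at 27.3 and 17.1 CPM in the knockouts against 31.2 and 19.0 CPM in the controls. It showed the same pair of high libraries as Irf8. Its log2 fold change was −0.17 (SE 0.27, 95% interval −0.81 to 0.47). With 272 to 480 reads per library, the Poisson intervals of the knockouts, 24.8 to 30.1 and 15.2 to 19.1 CPM, were apart.

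Bcl6, a zinc finger repressor that sits on osteoclast genes, was at 22.2 and 24.0 CPM in the knockouts against 25.5 and 19.7 CPM in the controls. The knockouts lay between the controls, with a log2 fold change of 0.04 (SE 0.15, 95% interval −0.31 to 0.40). Rbpj, the DNA-binding factor of the Notch pathway, which limits osteoclast formation under inflammatory signals, was at 50.4 and 43.5 CPM in the knockouts against 45.3 and 34.2 CPM in the controls. Control 2 was the low library. Its log2 fold change of 0.25 (SE 0.15, 95% interval −0.11 to 0.60, unadjusted p = 0.146) was the largest in size of the 9.

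**Figure D3:**
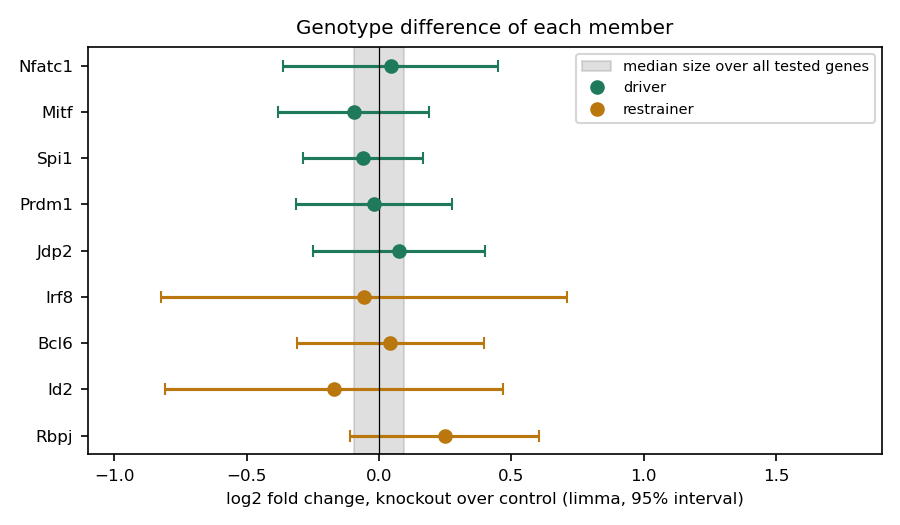
Log2 fold change of each gene, knockout over control, with its 95% interval from limma (green, drivers; ochre, restrainers). The grey band spans plus and minus 0.10, the median size over all genes tested, and every interval includes 0.

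Drivers and restrainers had fold changes of mixed sign and small size. The median log2 fold change of the 5 drivers was −0.02, with 2 positive and 3 negative, and that of the 4 restrainers −0.01, with 2 positive and 2 negative. Over all genes tested the median was 0.0016. In size, the 9 had a median log2 fold change of 0.06 against 0.10 over all genes tested, and Mitf, Id2 and Rbpj lay above the value for all genes. Leaving out 1 library turned the direction of 8 of the 9, with Rbpj as the exception. Such a turn must occur where the libraries of 1 genotype lie on both sides of the mean of the other. How many of all genes turn was not counted. For all 9 the larger difference between libraries of the same genotype exceeded the log2 fold change. This must hold wherever 2 groups of 2 libraries overlap, so it adds nothing to the overlap given above.

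The balance of both classes was also followed library by library. Each gene's log2(CPM + 0.5) was set against its control mean and averaged over the class. Drivers averaged −0.15 and 0.13 in the knockouts against 0.06 and −0.06 in the controls. Restrainers averaged 0.21 and −0.18 in the knockouts against 0.27 and −0.27 in the controls. Drivers minus restrainers came to −0.36 and 0.31 in the knockouts against −0.21 and 0.21 in the controls. The difference between genotypes was −0.03, while the SD between libraries was 0.48 in the knockouts and 0.29 in the controls (n = 2 each). Knockout 1 and control 1 had the lower balance within their genotypes. The controls mirror each other because values are set against their mean.

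**Figure D4:**
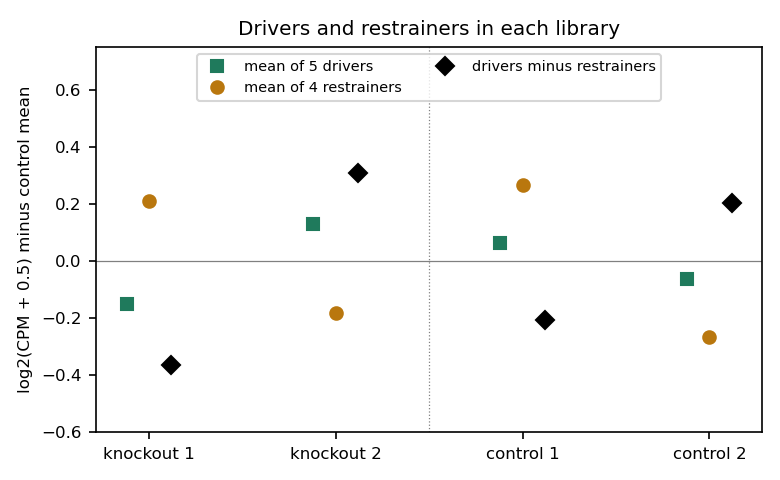
Mean of the 5 drivers (squares), mean of the 4 restrainers (circles) and their difference (diamonds) in each library, as log2(CPM + 0.5) minus the control mean. The difference is −0.36 and 0.31 in the knockouts and −0.21 and 0.21 in the controls, which mirror each other because values are set against their mean.

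The same values were also expressed as ratios of levels per length, in which Jdp2 makes up most of the drivers' sum. Summed drivers stood 44.2-fold and 74.0-fold above summed restrainers in the knockouts, against 44.4-fold and 66.3-fold in the controls. Nfatc1 alone stood 111-fold and 290.3-fold above Irf8 in the knockouts, against 140.3-fold and 197-fold in the controls. On the log2 scale Irf8 differed by 0.90 between the knockouts and by 0.75 between the controls, and Nfatc1 by 0.49 between the knockouts and 0.26 between the controls.

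Irf8 and Id2 were each higher in knockout 1 than in knockout 2, and in control 1 than in control 2, by over 0.5 on the log2(CPM + 0.5) scale. Of all genes tested 137 (1.16%) did so. Over all genes, the differences between the knockouts had a correlation of −0.0016 with those between the controls, a value taken across genes and not across independent samples. Some myeloid genes in the lists used here were also higher in the library numbered 1 of each genotype. They were picked for naming after their values were seen. Cebpa, a myeloid lineage factor, was at 30.6 and 16.6 CPM in the knockouts against 26.6 and 20.0 CPM in the controls. Its log2 difference between the controls was 0.41, short of the 0.5 used above. Cybb, the oxidase subunit that IRF8 activates in phagocytes, was at 145 and 68.5 CPM in the knockouts against 148 and 84.7 CPM in the controls. The macrophage marker Lyz2 was at 655 and 360.4 CPM in the knockouts against 561 and 344 CPM in the controls. The macrophage receptor Adgre1 was at 51.7 and 36.0 CPM in the knockouts against 49.9 and 26.3 CPM in the controls. All 4 were higher in knockout 1 and control 1 than in the other library of their genotype.

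**Figure D5:**
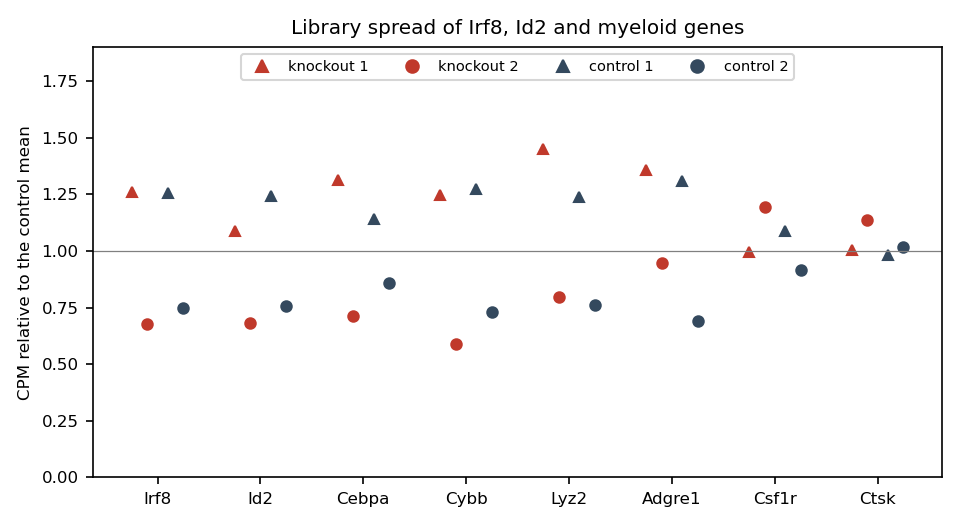
Level of Irf8, Id2 and 6 myeloid or osteoclast genes in each library relative to the control mean (triangles, libraries numbered 1; circles, libraries numbered 2; red, knockouts; dark, controls). From Irf8 to Adgre1 both triangles lie above both circles, while Csf1r and Ctsk do not show this.

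No close relative of the members passed the test either. Within the NFAT family, Nfatc1 made up 88.1% and 90.1% of the summed level per kb in the knockouts against 87.6% and 88.7% in the controls. Of the 5 NFAT genes 0 passed, and the lowest unadjusted p belonged to the scarce Nfatc2, at 4.82 and 3.59 CPM in the knockouts against 10.3 and 6.37 CPM in the controls (log2 fold change −0.88, limma adjusted p = 0.697). Nfatc4 had a log2 fold change of −0.61, Nfat5 −0.14 and Nfatc3 0.04. Mitf took 43.7% and 46.0% of the MiT/TFE family per kb in the knockouts against 48.4% and 44.2% in the controls. Its relatives Tfe3, Tfeb and Tfec, factors that also act on lysosomal genes, had log2 fold changes between −0.07 and 0.03. Spi1 held at least 99.2% of the PU.1 subgroup in every library, with Spic as the only other gene measured.

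Among the IRF genes, Irf8 held a small share, 2.08% and 1.21% of the summed level per kb in the knockouts against 2.04% and 1.36% in the controls. Irf5, a factor of Toll-like receptor signalling, held the most, 37.2% and 32.3% in the knockouts against 35.3% and 32.6% in the controls. Of 7 IRF genes 0 passed, with log2 fold changes from −0.12 for Irf2 to 0.13 for Irf1. Jdp2 held at least 96.7% of the group it forms with the AP-1 relatives Atf3, Batf, Batf2 and Batf3. Atf3, a stress-induced factor, was at 36.8 and 13.0 CPM in the knockouts against 26.8 and 16.1 CPM in the controls, so that the libraries numbered 1 were again the higher. Batf3 was too low to be tested. Id2 held 59.8% and 56.7% of the ID family in the knockouts against 63.5% and 51.2% in the controls, and Id3 was at 8.32 and 6.63 CPM in the knockouts against 9.16 and 9.87 CPM in the controls (log2 fold change −0.34, unadjusted p = 0.0973). Of the E proteins that ID proteins bind, Tcf4 had a log2 fold change of −0.21, Tcf3 0.08 and Tcf12 0.07.

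Other factors of the same circuit gave 0 calls in limma, edgeR and DESeq2. Of 16 further driving factors tested, 7 were positive and 9 negative, with a median log2 fold change of −0.02. Of the 16, 2 had an unadjusted limma p under 0.05, against 4.9% of all genes tested. They were Nfatc2, already counted in the NFAT family, and Myc, a growth factor-responsive driver. Myc was at 17.9 and 18.0 CPM in the knockouts against 23.4 and 21.1 CPM in the controls (log2 fold change −0.30). Of 6 further restraining factors, 2 were positive and 4 negative, with a median of −0.10 and none at an unadjusted p under 0.05. Nfe2l2, the antioxidant factor, was at 130.0 and 113 CPM in the knockouts against 115 and 103 CPM in the controls. Per kb of exon it averaged 30.4 CPM over the 4 libraries, above Mitf at 14.3, and Myc averaged 7.40, below Id2 at 9.70. The order of drivers above restrainers is thus that of the 9 genes only. Of 7 chromatin regulators that act on the members' genes or bind their products, 2 were positive and 5 negative. Hdac7, a deacetylase that represses MITF, had a log2 fold change of −0.38 (unadjusted p = 0.0741), and Ezh2, a histone methyltransferase, −0.17. Around Rbpj, 15 Notch pathway genes had a median of −0.00103, with 7 positive and 8 negative. Dtx3, a Deltex family gene, was at 1.78 and 1.85 CPM in the knockouts against 3.25 and 2.94 CPM in the controls (log2 fold change −0.63, limma adjusted p = 0.931), and the ligand gene Jag2 had a log2 fold change of −0.62.

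Genes that these factors switch on were measured as well. Of 14 osteoclast genes activated by NFATc1, MITF and PU.1, 0 passed in limma, edgeR or DESeq2, 11 were positive and 3 negative, and the median log2 fold change was 0.13. Their summed level, mostly Ctsk, Mmp9 and Acp5, was 62892 and 77567 CPM in the knockouts against 64983 and 61763 CPM in the controls. In this sum knockout 1 lay between the controls and knockout 2 alone stood above them. Of the 14 genes 3 had groups that did not overlap, all higher in the knockouts, against 31.9% of all genes tested. Dcstamp, required for cell fusion, had the smallest p, at 838 and 877 CPM in the knockouts against 666 and 649 CPM in the controls (log2 fold change 0.38, limma adjusted p = 0.475). Car2, the carbonic anhydrase that supplies protons, had a log2 fold change of 0.19 (unadjusted p = 0.0705). Of 4 measured genes that IRF8 activates, 0 passed, and the median was −0.08. Cst3, which encodes the protease inhibitor cystatin C, had a log2 fold change of 0.10 and Klf4, a monocyte factor, −0.10.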

How the data were processed

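Poly(A) RNA of 2 knockout and 2 control libraries was measured. Per the submitters' processing notes, STAR, featureCounts from Subread and edgeR were used on mm10 (GRCm38). Versions, the annotation, the strand setting and the low-gene filter were not given in the sources used here. The authors deposited a normalised signal per gene. Each column was a whole multiple of its smallest positive value (100% of values within 0.001 reads), so reads were recovered, and edgeR's TMM-scaled CPM matched the deposited signal to within 4.91e-11. 1 read was worth 0.0544 to 0.0700 CPM.

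limma (3.58.1, R 4.3.3) with an intensity trend was run on log2(CPM + 0.5) for genes that reached 1 CPM in 2 libraries or more, 2-sided, with genotype alone in the model and Benjamini-Hochberg adjustment over 11781 genes. Fold changes on this scale understate those of low genes. edgeR (4.0.16) and DESeq2 (1.42.0) on recovered reads, changed pseudocounts, filters on low values, scalings, limma variance settings, a replicate block and the omission of each library were alternatives. All libraries carry the same batch label. In the design text the libraries are biological replicates. Steps were tested on simulated reads with changes larger than those of the members, which does not show that smaller changes would be found. Lengths and positions came from GENCODE M21, and promoters from RefSeq on GRCm38.p6, taken at the start site nearest to that of the principal GENCODE transcript. The members and gene lists were chosen with earlier results of these data known. Named were all members, the other genes of their families, called genes of each list or otherwise the 2 with the smallest p, and the marker genes. Cebpa, Cybb and Mmp9 were named besides, after their values were seen. A further gene is not reported here.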

Additional observations from a re-analysis of the deposited data

How the results depend on the processing

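Under 15 alternatives 0 of the 9 genes were called, and the lowest adjusted p among them was 0.737 (Id2 without knockout 1). In the 11 alternatives that kept all 4 libraries 0 of them changed direction, though filters, variance settings and the block cannot alter a fold change. Leaving out 1 library at a time gave log2 fold changes of −0.20 to 0.29 for Nfatc1 (negative without knockout 2 or without control 2), −0.26 to 0.064 for Mitf (positive without control 1), −0.13 to 0.011 for Spi1 and −0.20 to 0.16 for Prdm1 (both positive without knockout 1), and −0.093 to 0.25 for Jdp2 (negative without knockout 2). Among restrainers it gave −0.46 to 0.35 for Irf8 and −0.52 to 0.18 for Id2 (both positive without knockout 2 or without control 1), −0.14 to 0.22 for Bcl6 (negative without knockout 2 or without control 2) and 0.05 to 0.45 for Rbpj. Drivers minus restrainers ranged from −0.36 to 0.31, and Piezo1 from −2.87 to −2.71. Over all genes 5 were higher and 14 lower. These became 2 and 2 without the intensity trend, 8 and 55 with DESeq2, and 2 to 16 and 4 to 60 with 1 library left out. A fit without 1 library leaves a genotype with a single library, which is assumed to vary like those of the other genotype. With the replicate number as a block, 18 were higher and 71 lower, with 0 of the 9 genes among them. With 2 pairs the numbers are not shown to pair the libraries (r = −0.0016). The cause of these shifts was not tested. Irf8 had the fewest reads, 53 to 96 per library, though its gaps between libraries of the same genotype exceeded counting error.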
